A study of Mus musculus with 12 samples.

Results

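The mitochondrial carrier family, the Slc25 genes, was examined in hearts of mice given a compound labelled DMA or its vehicle. Members were all array probes whose platform annotation gave a single gene symbol starting with Slc25a, with the probe of the highest mean value standing for each gene. This rule found 43 genes with 52 probes, among 18027 genes with a probe of their own and 36227 probes in all. All 43 are protein-coding genes in RefSeq (GRCm38.p6).

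Slc25 proteins mostly sit in the inner mitochondrial membrane and move small molecules between the cytosol and the matrix. Most are exchangers: the adenine nucleotide translocases pass ADP in and ATP out, the phosphate carrier brings in phosphate for ATP synthesis, and others move acylcarnitines, amino acids, keto acids, cofactors and iron. The heart lives largely on fatty acid oxidation and turns over its ATP pool quickly, so the exchange of ADP for ATP and the import of acylcarnitine are heavily used in its muscle cells. The family also holds the relatives of uncoupling protein and some members with no settled substrate.

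Balb/c mice, an inbred laboratory strain, were gavaged with DMA at 30 mg/kg body weight or with DMSO, the vehicle, and hearts were taken at 48 h or 24 h. The 4 groups were DMA at 48 h, DMSO at 48 h, DMA at 24 h and DMSO at 24 h, each of 3 samples on 1-colour arrays. DMA is not expanded in the labels, and the age of the mice is not given in the sources used here. Although the labels call the samples biological replicates, the design text says that the hearts of a group were pooled for RNA isolation, so all p-values measure the spread between samples that may be partly technical.

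Values are log2 intensities. Between 32230 and 35905 probes had a value on an array. Medians lay at 6.35 to 6.36 on the 48 h arrays and at 6.03 to 6.04 on the 24 h arrays, so levels were compared between the times only after all 12 arrays had been brought to one distribution (joint quantile normalization). The array of DMA 24 h replicate 3 stood apart: its r against the median of the remaining 24 h arrays was 0.742, while the same measure was 0.927 to 0.963 for the other 11. Where leaving out that array turned a value named here or moved it widely, the value without it is given too. Of 16 cardiomyocyte markers with a probe, 10 had values on fewer than 9 arrays and none of these averaged below 12.13, Tnnt2 (cardiac troponin T) being the lowest. Among the 4 with a value on all 12 arrays, Ckm, the muscle creatine kinase, averaged 11.47 and Myh6, the alpha myosin heavy chain, 6.49.

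Promoters were read from RefSeq (GRCm38.p6), which held 44 windows of 300 bases for 34 of the 43 carriers, each running from 250 bases before the transcription start to 50 bases after it. Both strands were searched for CCGGAAG, a core of sites for GABP, a factor known for controlling nuclear genes of mitochondrial proteins. It was found in 6 of 44 carrier promoters (13.6%) and in 8.86% of all 32851. The 6 belonged to Slc25a3, Slc25a4, Slc25a17, Slc25a20, Slc25a25 and Slc25a38. Shown are those of the phosphate carrier Slc25a3 and the heart and muscle ADP/ATP translocase Slc25a4, the 2 carriers whose signal was mostly missing, and of the acylcarnitine carrier Slc25a20, whose level differed widely between arrays of a group. Each runs 5′ to 3′ in the direction of its gene, with the motif in capitals. They lie at chr10:91123918-91124217 (minus strand), chr8:46211013-46211312 (minus strand) and chr9:108661886-108662185 (plus strand).
Slc25a3: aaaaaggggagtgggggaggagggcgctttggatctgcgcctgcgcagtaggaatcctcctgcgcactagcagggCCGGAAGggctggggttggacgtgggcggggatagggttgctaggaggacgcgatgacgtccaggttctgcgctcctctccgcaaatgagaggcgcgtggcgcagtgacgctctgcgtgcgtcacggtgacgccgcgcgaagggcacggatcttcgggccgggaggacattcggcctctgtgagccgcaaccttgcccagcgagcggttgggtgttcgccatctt
Slc25a4: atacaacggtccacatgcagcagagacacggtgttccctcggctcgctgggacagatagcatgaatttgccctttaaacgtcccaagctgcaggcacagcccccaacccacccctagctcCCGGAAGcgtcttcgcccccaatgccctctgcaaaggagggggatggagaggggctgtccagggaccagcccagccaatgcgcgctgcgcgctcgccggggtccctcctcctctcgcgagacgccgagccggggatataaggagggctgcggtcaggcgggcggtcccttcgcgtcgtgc
Slc25a20: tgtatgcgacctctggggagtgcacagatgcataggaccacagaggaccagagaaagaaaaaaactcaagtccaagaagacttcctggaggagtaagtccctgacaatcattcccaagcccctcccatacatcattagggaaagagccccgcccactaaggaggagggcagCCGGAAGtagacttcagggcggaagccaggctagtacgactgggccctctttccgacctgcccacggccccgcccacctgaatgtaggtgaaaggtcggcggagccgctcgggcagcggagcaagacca
With the first transcribed base as 0, the motif began at -175 in Slc25a3, at -130 in Slc25a4 and at -79 in Slc25a20. TGCGCA, the core of sites for NRF1, another factor of nuclear genes for mitochondria, was in 6.82% of carrier promoters and in 7.76% of all. AAGGTCA, the site of estrogen-related receptors, was in 2.27% and 4.72%, and TATAAA in 4.55% and 13.6%. Of these 3 further motifs, the promoters shown held only TGCGCA, at 2 places in Slc25a3 that do not overlap the capitals. These matches describe the windows and say nothing of a factor's binding.

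Carriers as a family lay above the middle of the genes on these arrays. The median of the 43 gene means over all arrays was 8.71, beside 6.97 over all 18027 genes. Of the carriers, 7 lay in the top 10% of genes (above 10.86), 20 in the top 25% (above 9.14), 17 below the median and 5 in the lowest 25%. Brightness depends on the probe as well as on the RNA, so each carrier's place is given as the share of genes with a lower mean and is no comparison of RNA amounts between carriers.

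Among carriers of adenine nucleotides, Slc25a4 had a value of 14.89 on 1 array only, DMA 24 h replicate 3, and the mean of that single value lay above 99.96% of genes. Slc25a3, the phosphate carrier, had values on 2 arrays, 13.67 on DMA 24 h replicate 3 and 14.70 on DMSO 24 h replicate 3. Its mean lay above 99.77% of genes. Both are therefore described by these values and no difference could be fitted. Slc25a5, the second ADP/ATP translocase and found in most tissues, had a value on every array. Its values were 13.36, 13.51 and 11.86 in DMA hearts at 48 h, against 13.95, 13.15 and 13.01 in DMSO hearts at 48 h. At 24 h they were 12.56, 12.78 and 12.26 in DMA hearts, against 12.78, 10.38 and 12.03 in DMSO hearts. The lowest Slc25a5 value was thus that of DMSO 24 h replicate 2, and the groups overlapped at both times. Slc25a31, the translocase known from testis, averaged 6.22, above 40.22% of genes. The calcium-dependent ATP-Mg/phosphate carriers Slc25a23 and Slc25a24 averaged 10.53 and 10.18, and the peroxisomal Slc25a17 9.59.

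Several amino acid carriers were bright. Slc25a38, the glycine carrier needed for haem synthesis, averaged 12.11 and lay above 96.02% of genes. Slc25a13, an aspartate/glutamate carrier of the malate-aspartate shuttle, averaged 11.12 (above 91.51%), and its heart and brain counterpart Slc25a12 10.08 (above 84% of genes). Slc25a22, a glutamate carrier, averaged 10.84, just under the top 10%. Slc25a18, the other glutamate carrier, averaged 5.18. Among dicarboxylate carriers Slc25a11, which exchanges malate for oxoglutarate, averaged 9.33, while Slc25a10, the dicarboxylate carrier, and Slc25a21, the oxodicarboxylate carrier, were in the lowest 25% at 5.02 and 4.16.

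The acylcarnitine carrier Slc25a20 averaged 7.45, above 56.06% of genes. Slc25a33, a pyrimidine nucleotide carrier, averaged 11.45, above 93.2% of genes. Slc25a46, a relative that sits in the outer membrane and is known for its part in mitochondrial shape, averaged 11.13, above 91.55%. The iron carriers Slc25a28 and Slc25a37, also called mitoferrins, averaged 9.54 and 8.93. Slc25a39 and Slc25a40, which bring glutathione into the matrix, averaged 9.58 and 5.19. Slc25a30, an uncoupling protein relative, Slc25a48 and Slc25a42, the coenzyme A carrier, had the 3 lowest means, 3.50, 3.41 and 4.06.

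**Figure D1:**
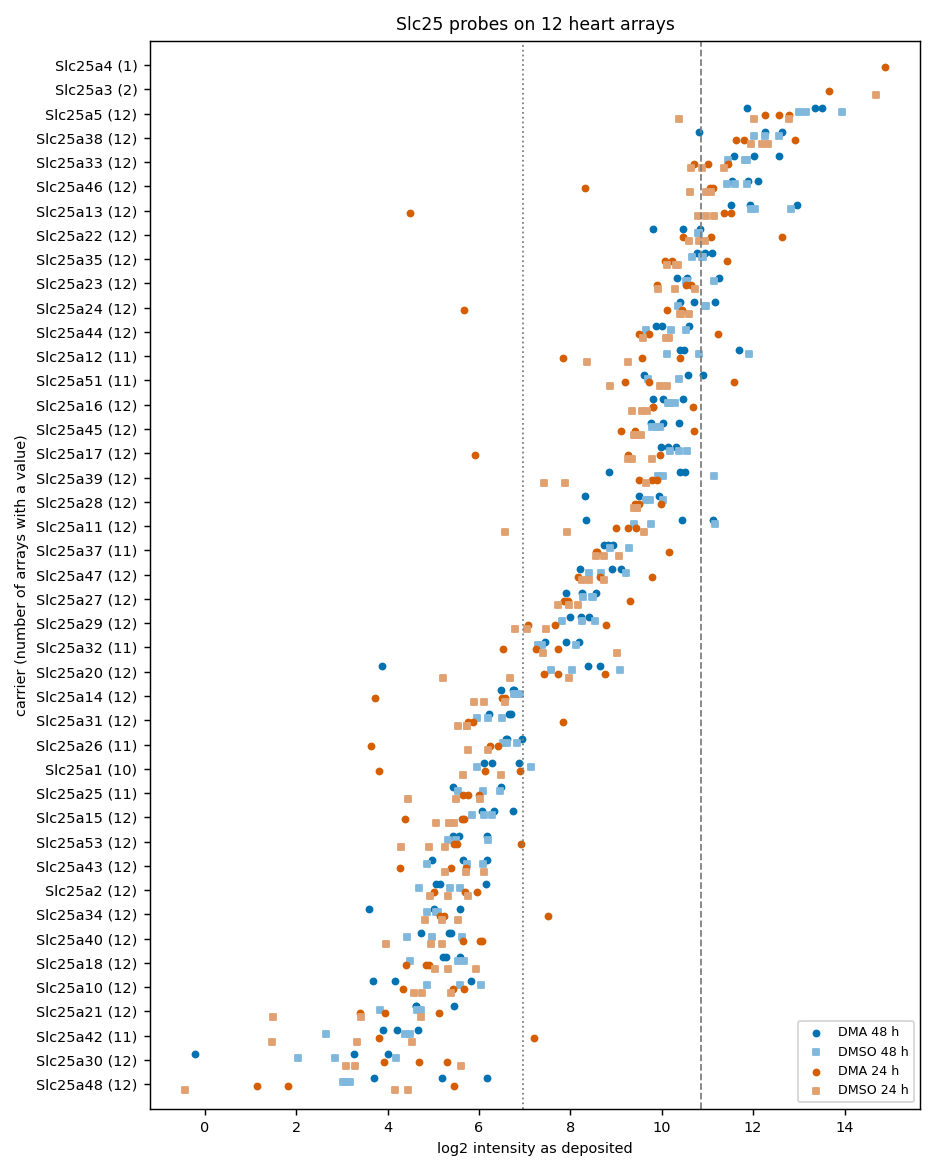
Log2 level of the carriers on each array. The horizontal axis gives the log2 intensity as deposited, each point is 1 array, and colour and marker give the group. The dotted line is the median of all gene means (6.97) and the dashed line the start of their top 10% (10.86). Slc25a4 is shown by its single value of 14.89 and Slc25a3 by 2 values, while Slc25a5 has all 12.

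Probes with most of their values missing were bright. Of the 43 carriers, 33 had values on all 12 arrays, 8 on 9 to 11, and 2, Slc25a3 and Slc25a4, on 1 or 2. Over the whole table, 168 of 36227 probes (0.464%) had 1 to 8 values, and the median of their means was 13.60, beside 6.08 for the 25002 probes with all values and 6.31 for those with 9 to 11. Slc25a3 and Slc25a4 were among 96 probes with 1 or 2 values. The other carriers with gaps were Slc25a1, the citrate carrier, with 2 missing values, and Slc25a12, Slc25a25, Slc25a26, Slc25a32, Slc25a37, Slc25a42 and Slc25a51 with 1 each. DMA 24 h replicate 3 had no missing carrier value and the other arrays had 2 to 4. Slc25a4 had a value on that array alone, and why the other 11 arrays lacked one was not tested.

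One array moved more carriers than any other. On DMA 24 h replicate 3, 28 of 41 carriers lay over 1 log2 unit from the median of the other 5 arrays of that time, 18 higher and 10 lower, with deviations of -6.64 to 3.64. Over all genes with a value the share was 55.5%. Slc25a13 was at 4.49 there, against 11.36 and 11.51 on the other DMA arrays of 24 h. Slc25a24 read 5.68, against 10.44 and 10.10 on the other DMA arrays of 24 h. Slc25a22 at 12.63 was above the 10.47 and 11.09 of those arrays, and Slc25a42 at 7.21 was above its only other DMA value of that time, 3.81. The next most deviant arrays, with 10 carriers each, were DMA 48 h replicate 3 (8 of 10 lower) and DMSO 24 h replicate 2 (8 of 10 lower). On these 2 arrays 19.8% and 20.1% of genes deviated as far. On every other array 1 to 8 carriers did.

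**Figure D2:**
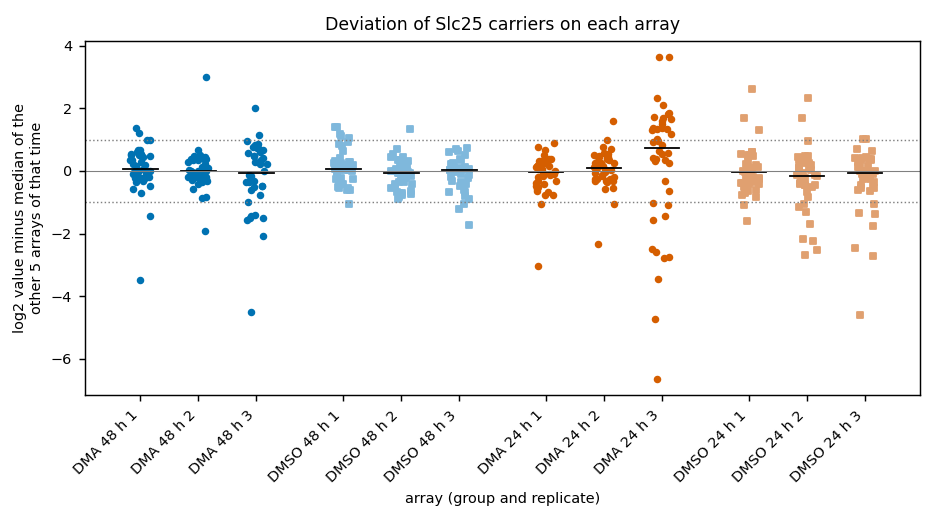
Deviation of the carriers on each array. The vertical axis gives the log2 value minus the median of the other 5 arrays of the same time, each point is 1 carrier, and the black bars are medians. The points of DMA 24 h replicate 3 reach from -6.64 to 3.64, with 28 of 41 outside the dotted lines at 1 log2 unit.

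For 9 carriers a second probe allowed the same array to be read again. The brighter Slc25a38 probe minus the other was 6.94 on DMA 24 h replicate 3, since the second probe was at 5.97 there, and -1.35 to 0.88 on the other arrays with both values. For Slc25a12 the difference was -0.79 on that array and 1.19 to 4.58 elsewhere. For Slc25a23 it was 3.93 there and 4.95 to 6.13 elsewhere. Both Slc25a24 probes were low there, at 5.68 and 4.83, and their difference of 0.84 lay within the 0.42 to 1.92 of the other arrays. Low Slc25a24 on that array was thus shared by both probes, and bright Slc25a38 was not. Both probes of a gene had differences of the same sign in 7 of 9 genes for DMA against DMSO at 24 h, in 2 of 9 at 48 h and in 3 of 9 between the vehicle groups.

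**Figure D3:**
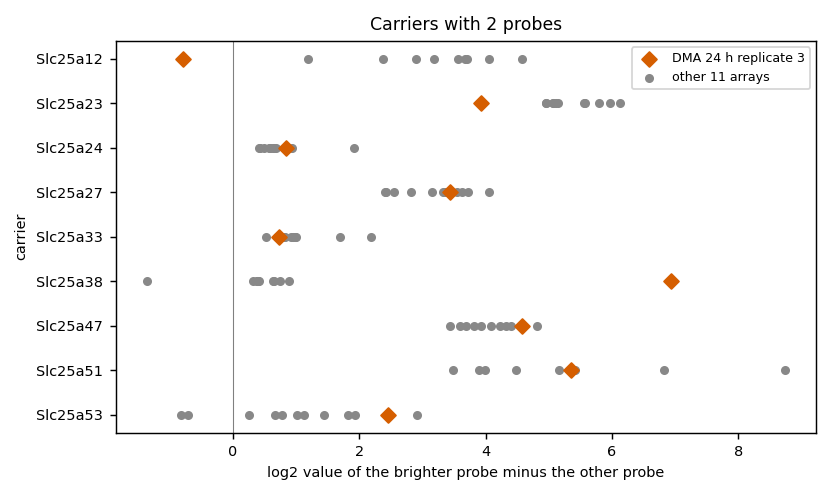
Brighter minus other probe for the 9 carriers with 2 probes. The axis gives the log2 difference between the probes, the diamonds are DMA 24 h replicate 3 and each grey point is 1 of the other arrays. DMA 24 h replicate 3 lies apart for Slc25a38 at 6.94 and for Slc25a12 at -0.79.

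Whether DMA changed carrier transcripts at 24 h was tested with limma over all 12 arrays, with Benjamini-Hochberg adjustment over 35401 probes and a threshold of 0.05. None of the 41 carriers passed, and 0 of 35401 probes did (0%). At an unadjusted p under 0.05, 1071 probes (3.03%) and 4 carriers were counted, all 4 higher in DMA hearts, Slc25a39, Slc25a40, Slc25a42 and Slc25a53. Over the 17611 genes the share was 2.82%, with 2% higher and 0.818% lower. The difference was positive for 29 of 41 carriers (70.7%) and for 55.2% of genes, with a median of 0.31 over the carriers and 0.09 over all genes. Without DMA 24 h replicate 3 it was positive for 23 of 40 carriers and 50% of genes, with a median of 0.08.

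Both glutathione carriers read higher on average in DMA hearts at 24 h. Slc25a40 had 6.07, 5.65 and 6.01 in DMA hearts, against 4.94, 3.95 and 5.18 in DMSO hearts. The groups did not overlap, and the difference was 1.22 (SE 0.432, adjusted p 0.871). Without DMA 24 h replicate 3 it was 1.17, and without DMSO 24 h replicate 2 it was 0.85. Slc25a39 had 9.49, 9.90 and 9.80 in DMA hearts, against 9.66, 7.42 and 7.89 in DMSO hearts. All 3 DMA values were close together, while DMSO replicate 1 lay among them. The difference was 1.41 (SE 0.632, adjusted p 0.871), and 0.95 without DMSO 24 h replicate 2.

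Slc25a53, which has no assigned substrate, had 5.45, 5.51 and 6.92 in DMA hearts, against 5.26, 4.29 and 4.91 in DMSO hearts. The groups did not overlap. Its difference was 1.14 (SE 0.476, adjusted p 0.871), but 0.66 without DMA 24 h replicate 3 and -0.59 at its second probe. Slc25a42, the coenzyme A carrier, had 3.81 and 7.21 in DMA hearts with 1 value missing, against 3.33, 4.53 and 1.47 in DMSO hearts. Its difference of 2.40 (SE 1.07) could not be fitted without DMA 24 h replicate 3. Slc25a42 is among the dimmest carriers.

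Toward lower values in DMA hearts, Slc25a32, the folate or FAD carrier, had 7.25, 6.51 and 7.72 in DMA hearts, against 9.03 and 7.40 in DMSO hearts with 1 value missing. The groups overlapped and the difference was -1.05 (SE 0.568). Slc25a18 had 4.90, 4.84 and 4.40 in DMA hearts, against 5.04, 5.31 and 5.93 in DMSO hearts, without overlap and with a difference of -0.71 (SE 0.398). For Slc25a24 the difference was -1.73 (SE 0.971) and for Slc25a17 -1.09 (SE 0.802). Without DMA 24 h replicate 3 these were -0.20 and 0.14, so the sign of Slc25a17 rested on that array. The same held for Slc25a13, at -1.84 (SE 1.44) with the array and 0.47 without it. No adjusted p of these 5 was below 0.871.

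Group by group, all 5 acylcarnitine and related carriers, 5 of 6 di- and tricarboxylate carriers and 5 of 7 carriers of cofactors and nucleotides had positive differences. So had 5 of 7 adenine nucleotide carriers, and amino acid carriers were split 4 to 4. Positive too were 2 of 2 iron carriers, 2 of 3 uncoupling protein relatives and 1 of 3 unassigned carriers, beside 55.2% of genes. Without DMA 24 h replicate 3 these counts were, in the same order, 2 of 5, 4 of 6, 4 of 7, 4 of 6 and 4 of 8. Iron carriers, uncoupling protein relatives and unassigned carriers then had 1 of 2, 2 of 3 and 2 of 3, beside 50% of genes. The acylcarnitine and the unassigned counts thus rested on that array. Slc25a20 had 7.73, 7.42 and 8.76 in DMA hearts, against 7.96, 5.21 and 6.68 in DMSO hearts. The groups overlapped, with a difference of 1.35 (SE 1.13), which was 0.65 without DMSO 24 h replicate 2. Slc25a11 had 9.26, 9.002 and 9.43 in DMA hearts, against 9.60, 6.57 and 7.92 in DMSO hearts, with a difference of 1.20 (SE 0.839) and 0.47 without that DMSO array. Slc25a5 differed by 0.81 (SE 0.623), and by 0.13 without it. Slc25a12 differed by 0.46, Slc25a22 by 0.61, Slc25a28 by 0.20 and Slc25a37 by 0.31. Without DMA 24 h replicate 3, Slc25a12 was at 1.17, Slc25a22 at -0.01, Slc25a28 at 0.03 and Slc25a37 at -0.22. Slc25a33 differed by 0.10 and Slc25a38 by -0.05, and by -0.09 and -0.45 without that array. The second Slc25a38 probe, low on that array, differed by -1.81.

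Of the 41 carriers, 4 were higher without overlap between the groups, Slc25a16, Slc25a31, Slc25a40 and Slc25a53, beside 4.42% of genes. Slc25a31 had 5.87, 5.77 and 7.83 in DMA hearts, against 5.73, 5.54 and 5.73 in DMSO hearts, a difference of 0.82 (SE 0.501) that was 0.15 without DMA 24 h replicate 3. Only Slc25a18 was lower without overlap, beside 3.29% of genes. Differences over 1 log2 unit in either direction were seen in 10 of 41 carriers and in 17.3% of genes.

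At 48 h, none of the 41 carriers and 0 of 35401 probes passed limma's test of DMA against DMSO (0%). An unadjusted p under 0.05 was reached by 494 probes (1.4%), by 1.02% of genes and by 0 carriers. The difference was positive for 20 of 41 carriers and for 51.4% of genes, with medians of -0.02 over the carriers and 0.01 over all genes. Without DMA 48 h replicate 3 the carriers' median was 0.06, with 24 of 41 positive, beside a median of 0.005 and 50.7% positive over all genes. The adjusted p of each of the 41 carriers was 1.

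Slc25a48, a relative of the acylcarnitine carriers, was the only carrier without overlap at 48 h (beside 3.95% of genes higher and 2.33% lower). It had 3.70, 6.18 and 5.18 in DMA hearts, against 3.09, 3.18 and 3.02 in DMSO hearts, a difference of 1.92 (SE 1.34). At 24 h its values ran from 1.14 to 5.46 in DMA hearts, against -0.44 to 4.45 in DMSO hearts, near the bottom of the scale. Slc25a20 had 8.65, 8.38 and 3.87 in DMA hearts at 48 h, against 9.09, 8.03 and 7.58 in DMSO hearts. Its difference of -1.27 (SE 1.13) came from DMA 48 h replicate 3 and was 0.28 without it. Slc25a10 had 4.15, 3.67 and 5.82 in DMA hearts, against 6.04, 4.86 and 5.58 in DMSO hearts, with a difference of -0.95 (SE 0.588), and -1.58 without that array. That array held the highest Slc25a10 value of the DMA hearts at 48 h, 5.82. Without it the unadjusted p of Slc25a10 was 0.012 in limma, and its adjusted p was far above the threshold. In that fit 495 of 34436 probes and 1 of 41 carriers had an unadjusted p under 0.05.

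Slc25a33 had 12.01, 11.58 and 12.57 in DMA hearts, against 11.87, 11.46 and 11.83 in DMSO hearts, a difference of 0.34 (SE 0.373) that was 0.08 without DMA 48 h replicate 3. At the second Slc25a33 probe the difference was 0.009. Slc25a15, the ornithine carrier, differed by 0.30 (SE 0.4), and Slc25a21 by 0.50 (SE 0.733), and by 0.12 and 0.22 without that array. Slc25a28 had 9.50, 9.95 and 8.32 in DMA hearts, against 9.66, 10.02 and 9.74 in DMSO hearts. Its difference of -0.55 (SE 0.414) was -0.08 without DMA 48 h replicate 3, and that of Slc25a22, -0.44 (SE 0.504), was -0.16. Slc25a5 differed by -0.46 (SE 0.623), Slc25a11 by -0.14, Slc25a12 by -0.09, Slc25a13 by -0.14, Slc25a31 by 0.31, Slc25a37 by -0.24 and Slc25a38 by -0.37. Without DMA 48 h replicate 3, Slc25a5 was at 0.07, Slc25a11 at 0.68, Slc25a12 at 0.10, Slc25a13 at 0.17 and Slc25a38 at 0.16, so the signs of these 5 rested on that array. Over 1 log2 unit were 2 of 41 carriers, Slc25a20 and Slc25a48, beside 4.65% of genes.

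**Figure D4:**
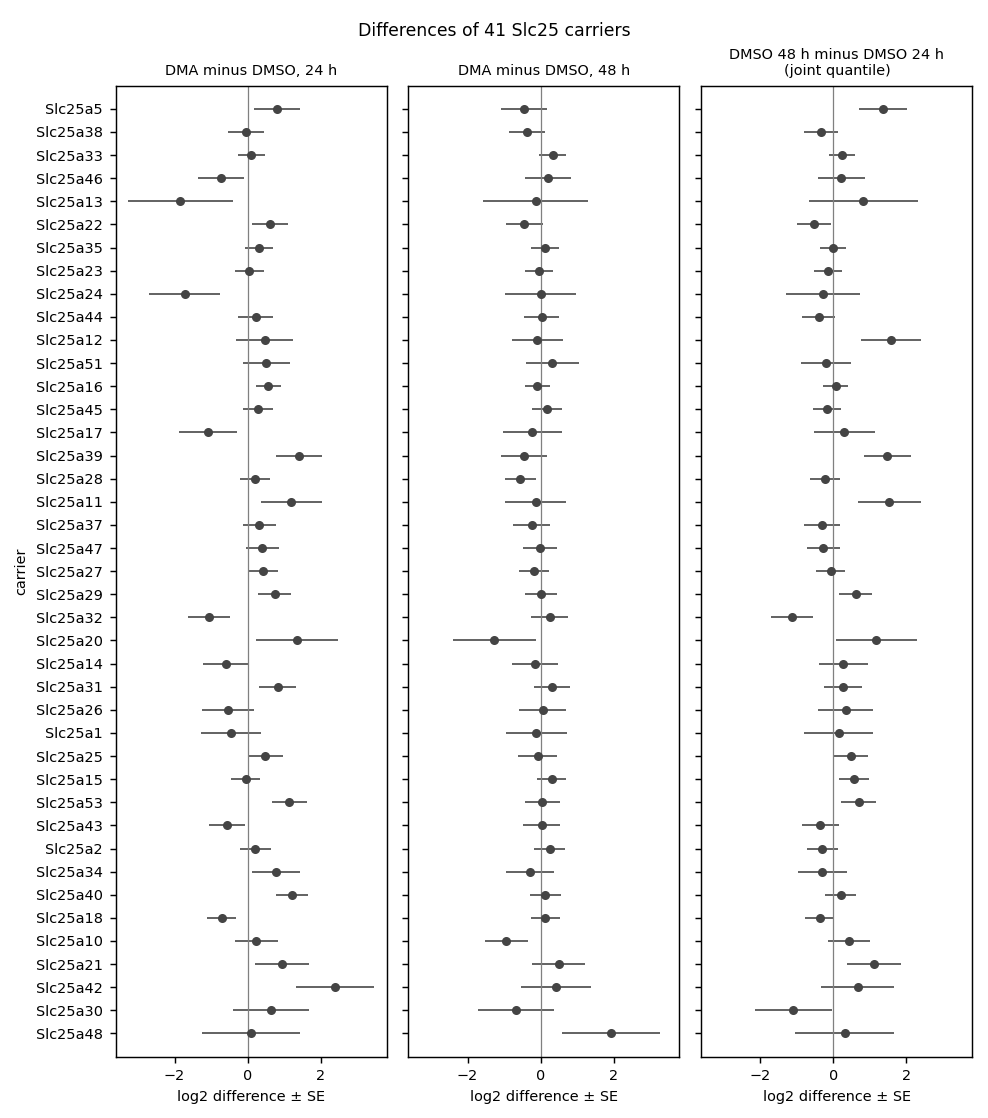
Log2 difference of the 41 tested carriers for DMA minus DMSO at 24 h and at 48 h and for DMSO at 48 h minus DMSO at 24 h, in order of mean level. Points are the fitted differences and bars their standard errors. At 24 h the points reach from -1.84 (Slc25a13) to 2.40 (Slc25a42), at 48 h from -1.27 (Slc25a20) to 1.92 (Slc25a48), and no carrier passed the test in any panel.

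The difference between the DMA effects of the times was tested in the same limma model. It passed in 0 carriers and 0 of 35401 probes (0%), with 695 probes (1.96%), 1.5% of genes and 0 carriers at an unadjusted p under 0.05. Differences over 1 log2 unit were seen in 15 of 41 carriers and 23.7% of genes. The 48 h effect minus the 24 h effect had a median of -0.42 over the carriers, beside -0.04 over all genes, and was positive in 14 of 41 carriers and 47.8% of genes. For Slc25a39 it was -1.86 (SE 0.894, adjusted p 0.999), for Slc25a40 -1.09 (SE 0.611), for Slc25a53 -1.09 (SE 0.673) and for Slc25a20 -2.62 (SE 1.6). Slc25a20 was at -1.07 without DMA 48 h replicate 3, Slc25a53 at -0.61 without DMA 24 h replicate 3, and Slc25a40 at -0.72 without DMSO 24 h replicate 2. It was 1.30 (SE 0.762) for Slc25a32, 0.84 (SE 0.563) for Slc25a18, 1.73 (SE 1.37) for Slc25a24 and 0.93 (SE 0.893) for Slc25a46. Slc25a18 was at 0.47 without DMSO 48 h replicate 1. Without both DMA arrays numbered 3, Slc25a20 was at -0.68, Slc25a24 at -0.01 and Slc25a46 at -0.02.

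Vehicle hearts of the 2 times show how far carriers differed without DMA. After joint quantile normalization, 0 of 41 carriers and 0 of 35401 probes passed in limma for DMSO at 48 h against DMSO at 24 h (0%). At an unadjusted p under 0.05 there were 948 probes (2.68%) and 1 carrier, Slc25a39, higher at 48 h. Over all genes the share was 2.76%, with 1.72% higher and 1.04% lower. The difference was positive for 23 of 41 carriers and for 51.7% of genes, with medians of 0.20 and 0.02. Time and scaling cannot be told apart: as deposited, the median over all genes was 0.42, the carriers' median 0.54, and 35 of 41 carriers were positive beside 80.8% of genes.

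Slc25a39 had 10.90, 9.73 and 9.60 in DMSO hearts at 48 h, against 9.98, 7.68 and 8.16 at 24 h on the joint scale. Replicate 1 of 24 h lay above 2 of the 48 h values. Its difference was 1.47 (SE 0.644, adjusted p 1) and 1.01 without DMSO 24 h replicate 2. Slc25a5 had 14.19, 12.99 and 12.81 at 48 h, against 13.05, 10.68 and 12.23 at 24 h, a difference of 1.35 (SE 0.664) that was 0.69 without that array. Slc25a11 had 10.93, 9.46 and 9.08 at 48 h, against 9.92, 6.77 and 8.19 at 24 h, a difference of 1.53 (SE 0.856), and 0.77 without it. For all 3 carriers the lowest value was that of DMSO 24 h replicate 2, and the times overlapped.

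Slc25a12 did not overlap, with 11.70, 9.82 and 10.53 at 48 h, against 8.67 and 9.55 at 24 h with 1 value missing, a difference of 1.58 (SE 0.809). At the second Slc25a12 probe the difference was -0.01. Slc25a13 and Slc25a15 were also higher without overlap, which makes 3 carriers beside 6.8% of genes. Slc25a22 and Slc25a45 were lower without overlap, beside 5.88% of genes. Slc25a22 had 10.56, 10.51 and 10.52 at 48 h, against 10.90, 11.12 and 11.20 at 24 h. Its difference of -0.54 (SE 0.462) depended on the scaling and was 0.03 as deposited, as did that of Slc25a45, at -0.18 on the joint scale and 0.43 as deposited. Toward lower values at 48 h, Slc25a32 differed by -1.13 (SE 0.576), Slc25a30 by -1.10 (SE 1.05) and Slc25a18 by -0.38 (SE 0.393). As deposited, Slc25a32 was at -0.62 and Slc25a18 at -0.19. Slc25a30 was at -0.26 without DMSO 24 h replicate 2, and Slc25a18 at -0.04 without DMSO 48 h replicate 1. Over 1 log2 unit were 8 of 41 carriers, beside 10.6% of genes.

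Most tested markers of some heart cell types also had positive differences between the vehicle groups, beside 51.7% of genes. Positive were 5 of 6 for cardiomyocytes, 8 of 9 for endothelial cells and 5 of 7 for fibroblasts, with medians of 1.45, 1.00 and 0.54. Smooth muscle and pericyte markers had 4 of 7 positive, with a median of 0.27. Other lists went less far or the other way, with 1 of 5 macrophage, 0 of 3 white fat and 2 of 7 skeletal muscle markers positive. Their medians were -0.13, -0.71 and -0.16. Positive were also 3 of 6 lymphocyte, 4 of 6 neutrophil, 2 of 2 red cell and 3 of 4 brown fat markers. None passed the test. Of 16 cardiomyocyte markers with a probe, Actn2, Ckm, Myh6 and Ryr2 had all values. On the joint scale the mean of these 4 was 10.02, 7.90 and 7.69 in DMSO hearts at 48 h. At 24 h it was 8.39, 6.004 and 6.93, lowest on DMSO 24 h replicate 2. As deposited it ran from 7.46 to 9.70 in DMA hearts at 48 h, against 7.87 to 10.15 in DMSO hearts. At 24 h it ran from 6.19 to 7.77 in DMA hearts, against 5.87 to 8.15 in DMSO hearts. No marker was listed at 0, and 10 of the 16 had values on fewer than 9 arrays. On the joint scale the mean of 5 endothelial markers was 9.91, 9.30 and 8.95 in DMSO hearts at 48 h, against 9.54, 7.42 and 8.39 at 24 h, and that of 4 fibroblast markers 10.42, 9.28 and 9.59 at 48 h, against 9.62, 8.31 and 9.30 at 24 h. Among the DMSO arrays both were lowest on DMSO 24 h replicate 2, as was the mean of 5 smooth muscle and pericyte markers, at 8.70. On DMA 24 h replicate 3 the joint-scale means of some lists were the lowest of the DMA arrays of 24 h. These were 6.325 for cardiomyocytes, 7.40 for endothelial cells, 7.54 for smooth muscle and pericytes, 9.17 for macrophages and 4.66 for skeletal muscle. Other means were the highest there, 9.52 for fibroblasts, 5.25 for neutrophils, 6.20 for lymphocytes, 8.32 for white fat and 7.96 for brown fat. The part of the markers in the carriers' differences was not tested, and in bulk hearts fewer cells of a type and less RNA per cell cannot be told apart.

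**Figure D5:**
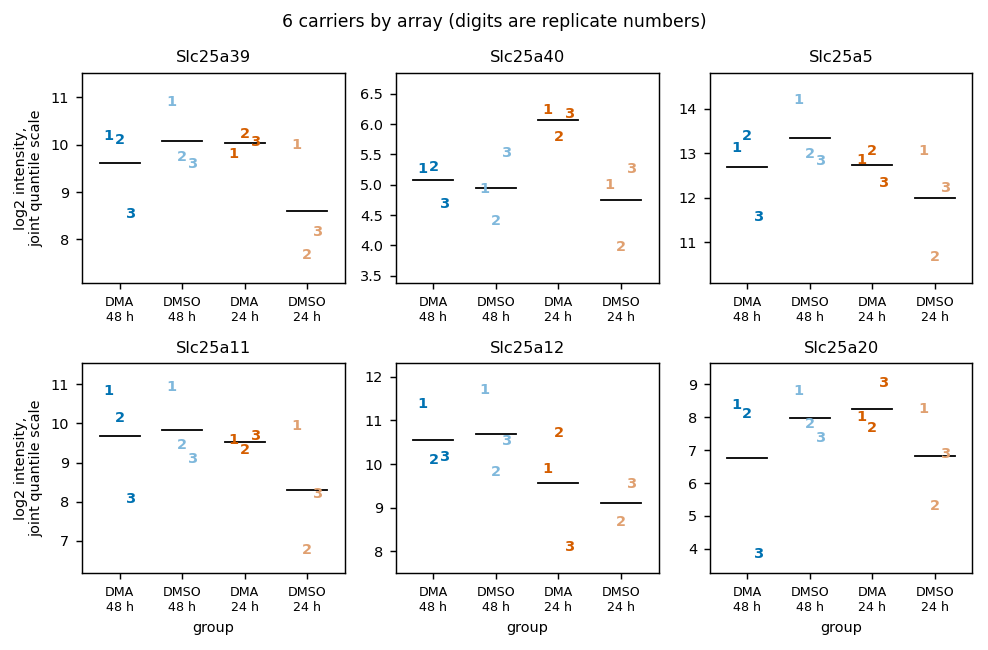
Log2 intensity of 6 carriers in the 4 groups after joint quantile normalization. Each digit is 1 array and gives its replicate number, and the bars are group means. DMSO 24 h replicate 2 is the lowest of its group in each panel, at 10.68 for Slc25a5 and 6.77 for Slc25a11, and DMA 48 h replicate 3 is lowest for Slc25a20.

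Genes that work with the carriers were described by 3 lists. Of 4 relatives with other names and a probe (Mtch1, Mtch2, Ucp1 and Ucp3), 11 genes for the import of carriers into the inner membrane and 9 tested partners in nucleotide, pyruvate and calcium exchange, 0 passed limma's test in any comparison. At 24 h, 4 of 4 relatives, 3 of 11 import genes and 6 of 9 partners were positive for DMA minus DMSO, with medians of 0.63, -0.73 and 0.20. Without DMA 24 h replicate 3, 3 of 3, 7 of 11 and 5 of 8 were positive, with medians of 0.29, 0.14 and 0.32, so the sign of the import genes' median rested on that array. At 48 h, 2 of 4, 3 of 11 and 5 of 9 were positive. Timm13, a small Tim protein that guides carriers across the intermembrane space, had 10.80, 11.34 and 5.89 in DMA hearts at 24 h, against 10.85, 10.46 and 10.89 in DMSO hearts. Its low value, like those of Slc25a13 and Slc25a24, was on DMA 24 h replicate 3. Vdac3, an outer membrane channel, was at 7.02 on that array, against 13.03 and 13.14 on the other DMA arrays of 24 h. Between the vehicle groups, an unadjusted p under 0.05 was reached in limma by Mtch1, Tomm40 and Ucp1, each with an adjusted p of 1. The share was 50% of relatives, 9.09% of import genes and 0% of partners, beside 2.76% of all genes. Differences were 1.13 (SE 0.468) for Mtch1, 1.33 (SE 0.503) for Tomm40, the pore of the outer membrane, and -2.42 (SE 1.07) for Ucp1. As deposited, Ucp1 had 5.39, 3.84 and 3.11 in DMSO hearts at 48 h, against 4.78, 6.015 and 8.20 at 24 h. Mtch1 was at 0.74 without DMSO 24 h replicate 2. Ckmt2, the mitochondrial creatine kinase, had 8 values and was not tested.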

How the data were processed

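Hearts of 4 groups of 3 were measured on 1-colour arrays. The deposited table holds log2 values of 36227 probes, 21615 of them with 1 gene symbol in the platform annotation, 681 with several and 13931 with none. Scanner, background correction and normalization are not given in the sources used here. Per the labels' protocols, cRNA made from polyA RNA carried biotin and was read through Cy5.

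Genes were represented by their brightest single-symbol probe. Probes with at least 2 values in each of the 4 groups were tested, 35401 of 36227. The model, in limma (version 3.58.1, under R 4.3.3), had 1 mean per group over the 12 arrays and used eBayes. Its p-values were adjusted by Benjamini-Hochberg over the 35401 probes, with a threshold of 0.05. Missing values were left out of a probe's fit, not imputed. The vehicle groups of the 2 times were compared after limma's normalizeQuantiles over all arrays. The fit was tested on simulated data with independent noise of the same spread on all arrays of a probe. Those data held no outlying array and no samples linked by number, so they say nothing of such cases. Motifs and plots used Python 3.11.15 and matplotlib 3.10.9. The number of arrays limits the precision.

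Values are given for carriers in the top 10% of genes, carriers that were not tested, up to 4 per direction with the smallest p in each comparison, and the main carriers of ADP/ATP, phosphate, acylcarnitine, malate-aspartate shuttle and iron. Other carriers named were chosen after their values were seen. The members and lists were chosen with earlier results of these data known.

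Whether replicate numbers pair the samples was checked from deviations from group means over 25002 probes. For DMA and DMSO samples sharing a number, r was 0.266 to 0.329 (48 h) and 0.11 to 0.186 (24 h). For those of different numbers it was -0.208 to -0.0836 (48 h) and -0.101 to -0.0117 (24 h). Deviations cancel over the 3 samples of a group, so negative r there follows in part from positive r for shared numbers. It is no separate evidence of pairing. Within a time, r exceeded 0.1 in each pair sharing a number. A fit with the number as a block was therefore run beside the main fit, which had none. This rests on the data, as the labels give no reason for pairing. For vehicle samples of 48 h and 24 h, r was -0.0953 to 0.11 with a shared number and -0.253 to 0.248 otherwise. The vehicle comparison was blocked by number across the times all the same, without that ground. Alternatives were other normalizations and filters, array weights, a replicate block, subtraction of a running median over 1001 probes in file order, and arrays left out.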

Additional observations from a re-analysis of the deposited data

How the results depend on the processing

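No carrier passed the threshold in any comparison under any alternative run. Over all probes the count was also 0, except without DMA 48 h replicate 1, where 1 probe passed at 48 h (no gene name) and 1 between the vehicle groups (Tex12), so leaving out 1 array gave 0 to 1. Unadjusted p under 0.05 ranged with 1 array left out over 649 to 2813 probes at 24 h, 392 to 781 at 48 h, 495 to 1049 for the difference between the times and 537 to 1998 between the vehicle groups. Among carriers those counts were 1 to 6, 0 to 1, 0 to 1 and 0 to 4. The 4 of 41 carriers at 24 h stood beside 1071 of 35401 probes. Without DMA 24 h replicate 3 they were 2 of 40, beside 1074 of 34254 probes. Array weights gave 2 of 41, beside 3800 of 35401 probes, and the replicate block 3 of 41, beside 1708 of 35401. With the replicate block, 0 probes passed in all 4 comparisons. Unadjusted counts were 1708, 753, 1164 and 1231, and the carriers' medians were 0.31, 0.00165, -0.40 and 0.202. The block thus changed no call. Between the vehicle groups it joined numbers across the times, where r did not set shared numbers apart.

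The carriers' median at 24 h (0.31) was 0.0579 with array weights, 0.0846 without both DMA arrays numbered 3, and 0.0846 to 0.555 with 1 array left out. Between the times (-0.417) it was -0.139 with array weights, -0.255 with the probe-order trend subtracted, -0.242 without both DMA arrays numbered 3, and -0.549 to -0.202 with 1 array left out. Between the vehicle groups (0.202) it was 0.542 as deposited, 0.0574 with dim probes left out, and 0.0113 to 0.244 with 1 array left out. Of 675 alternatives of the 32 named values, 666 kept their sign and none passed the threshold. The named values were picked for the smallest p in these same data. Some alternatives, such as leaving out an array of the other time, cannot change a DMA minus DMSO difference. The count is therefore no measure of how firm the signs are. The 9 reversals were those of Slc25a17 at 24 h (0.378 with array weights, 0.144 without both DMA arrays numbered 3, -1.88 to 0.144 with 1 array left out), Slc25a20 at 48 h (0.281 without both, -2.11 to 0.281 with 1 left out), Slc25a46 between the times (-0.0224 with array weights, -0.0199 without both), Slc25a24 between the times (-0.011 without both) and Slc25a22 between the vehicle groups (0.0299 as deposited). The causes were not tested. Leaving out 1 array turned the sign of 21 of 41 carriers at 24 h, 24 at 48 h, 18 between the times and 9 between the vehicle groups.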
